A study of Mus musculus with 2 samples.

Results

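Cells that the authors labelled TAC1, a name read here as a first class of transit-amplifying cells, made up 2274 of the 17808 cells of a single-cell RNA sequencing study of mouse corneal epithelium. They were taken by that label alone from the deposited cell table, with no gene used in the choice. There were 1261 TAC1 cells among the 9605 cells of the control library (13.1%, 95% Clopper-Pearson interval 12.5 to 13.8) and 1013 among the 8203 cells of the diabetic library (12.3%, 11.6 to 13.1). The nearest labels used beside them were Basal, with 2505 and 2382 cells, and TAC2, with 657 and 706 cells. How the authors assigned the labels is not given in the sources used here. Labels made by clustering draw on the same counts, so differences between labels below describe the label and were not tested.

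All mice were male C57BL/6J animals aged 20 weeks, an inbred strain, and the labels name no transgene or deletion in either group. Diabetic mice had received 1 dose of streptozotocin at 160 mg/kg, a toxin taken up by the insulin-producing beta cells of the pancreas, and their blood glucose had stayed above 250 mg/dL through the 12 weeks of the study. Control mice had received citrate buffer. Each group was 1 library that pooled 4 corneas of 2 mice, so no difference between the groups has a replicate check. Type 1 diabetes is modelled here by a chemical that acts through beta cell loss, and the labels name no arm in which glucose was brought back down.

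The corneal epithelium is a layered sheet that is renewed from limbal stem cells at its rim and from dividing cells of its basal layer. Transit-amplifying cells are the dividing descendants of those stem cells, and each passes through a phase of DNA synthesis (S phase) before it enters G2 and mitosis. Before S phase, the origin recognition complex, Cdc6 and Cdt1 load the Mcm2 to Mcm7 helicase onto DNA. During S phase the helicase is activated by Cdc45 and the GINS complex, polymerases copy both strands behind the sliding clamp Pcna, and ribonucleotide reductase and thymidylate synthase supply the nucleotides. Genes of the early steps are classic targets of E2F transcription factors, and genes of G2 and M phase are classic targets of the DREAM and B-MYB complexes, which bind the cell cycle homology region (CHR) element.

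Since TAC1 and TAC2 cells were separated below by genes of these 2 phases, 5 promoters are shown. Mcm3, Mcm6 and Hells stood higher in TAC1 cells than in both other labels, and Ube2c and Cenpf stood far higher in TAC2 cells. Each is the RefSeq window of GRCm38.p6 from 250 bases before to 50 bases after the gene's start, written 5′ to 3′ on the gene's strand. The windows are chr1:20820263-20820562 (minus strand) for Mcm3, chr1:128359656-128359955 (minus strand) for Mcm6, chr19:38930740-38931039 (plus strand) for Hells, chr2:164769679-164769978 (plus strand) for Ube2c and chr1:189688037-189688336 (minus strand) for Cenpf. Capitals mark the E2F motif TTTNNCGC on either strand in the first 3 and the CHR motif TTTGAA on either strand in the last 2.
Mcm3: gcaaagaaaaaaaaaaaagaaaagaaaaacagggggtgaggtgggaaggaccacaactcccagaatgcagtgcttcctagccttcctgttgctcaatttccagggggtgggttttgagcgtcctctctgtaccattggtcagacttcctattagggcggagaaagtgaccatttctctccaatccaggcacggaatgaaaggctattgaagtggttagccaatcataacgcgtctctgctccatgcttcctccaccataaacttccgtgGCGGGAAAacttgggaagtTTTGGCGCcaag
Mcm6: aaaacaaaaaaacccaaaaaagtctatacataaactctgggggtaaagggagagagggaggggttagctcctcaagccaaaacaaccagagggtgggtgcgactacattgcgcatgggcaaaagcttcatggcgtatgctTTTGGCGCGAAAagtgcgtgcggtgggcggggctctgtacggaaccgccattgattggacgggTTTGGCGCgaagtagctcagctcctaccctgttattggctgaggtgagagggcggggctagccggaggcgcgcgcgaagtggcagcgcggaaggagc
Hells: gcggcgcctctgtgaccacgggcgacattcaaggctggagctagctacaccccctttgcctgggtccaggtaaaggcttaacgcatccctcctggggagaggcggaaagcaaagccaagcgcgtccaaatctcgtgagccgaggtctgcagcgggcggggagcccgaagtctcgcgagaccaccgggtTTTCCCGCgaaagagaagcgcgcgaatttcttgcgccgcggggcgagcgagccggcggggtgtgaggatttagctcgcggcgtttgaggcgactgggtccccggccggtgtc
Ube2c: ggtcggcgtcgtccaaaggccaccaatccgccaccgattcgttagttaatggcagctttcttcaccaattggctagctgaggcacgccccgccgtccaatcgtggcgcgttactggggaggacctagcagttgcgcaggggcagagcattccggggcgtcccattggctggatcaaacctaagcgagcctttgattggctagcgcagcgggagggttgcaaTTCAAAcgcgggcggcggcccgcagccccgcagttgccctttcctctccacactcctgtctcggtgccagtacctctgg
Cenpf: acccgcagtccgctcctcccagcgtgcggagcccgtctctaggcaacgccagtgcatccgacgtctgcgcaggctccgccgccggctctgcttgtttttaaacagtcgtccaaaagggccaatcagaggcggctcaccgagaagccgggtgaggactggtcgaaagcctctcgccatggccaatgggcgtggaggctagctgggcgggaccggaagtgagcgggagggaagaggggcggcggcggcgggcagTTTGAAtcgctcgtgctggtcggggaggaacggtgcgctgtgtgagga
The 2 capital stretches of Mcm6 hold 3 matches, of which 2 overlap. Over the 20-gene S phase list, 17 genes had a promoter in the RefSeq table, and the motif was in 10 of their 20 promoters (50%). It was in 1 of 24 promoters of the 26-gene G2 and M list (4.17%), in 5.17% of all 32851 promoters and in 8.65% of those of genes measured in TAC1 and Basal cells. That single G2 and M gene was Cdk1, the mitotic kinase. TTTGAA had the opposite spread, with 3 of 20 S phase promoters (15%), 18 of 24 G2 and M promoters (75%) and 17.9% of all promoters. CCAAT, a motif of many housekeeping and cell cycle promoters, was in 70% of the S phase and 91.7% of the G2 and M promoters against 37.4% of all. The windows of Pcna and Rrm2 held neither TTTNNCGC nor TTTGAA. These matches describe letters in the windows, and no binding was measured.

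Whole counts of unique molecular identifiers (UMIs, tags that let copies of 1 captured molecule be counted once) were summed over the cells of a label in a library and scaled to CPM, the count of a gene per 1000000 counts of that sum. A gene was said to differ by a rule of size, which asked for CPM that differed by at least 1.5-fold, a sum of at least 50 counts over both arms, and 95% Poisson intervals that did not overlap. Comparisons between labels had to pass in both libraries. Genes with 50 counts are called measured. Intervals on ratios are 95% intervals for counting error only, and no test was run or p-value computed, since the cells of 1 pool do not replicate one another. TAC1 cells held a median of 16938 UMIs and 3491 genes in the control and 19814 UMIs and 3840 genes in the diabetic library, and a median mitochondrial share of 1.77% and 1.85%. The libraries shared 18 cell barcodes, and 5 TAC1 cells carried 1 of them.

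The 3 genes set as marks of the label were all high in it. Pcna, the sliding clamp of replication (chr2:132249162-132253314 on GRCm38), stood at 208 CPM in the control and 213 CPM in the diabetic library. Rrm2, the regulated subunit of ribonucleotide reductase (chr12:24708241-24714146), stood at 72.8 and 64.7 CPM, and Tyms, thymidylate synthase (chr5:30058202-30073617), at 78.9 and 82.9 CPM. In Basal cells the same genes were at 52.1 and 45.5 CPM, 6.20 and 5.27 CPM and 12.3 and 12.8 CPM. TAC1 cells therefore exceeded Basal cells by 4.00- and 4.69-fold for Pcna, 11.7- and 12.3-fold for Rrm2 and 6.41- and 6.5-fold for Tyms in the control and diabetic library. The marks did not set TAC1 above TAC2. Pcna was at 190.1 and 185 CPM in TAC2 cells and did not pass the rule, while Rrm2 (127 and 114 CPM) and Tyms (156 and 139.9 CPM) were higher there by 1.75- and 1.76-fold and 1.98- and 1.69-fold.

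**Figure D1:**
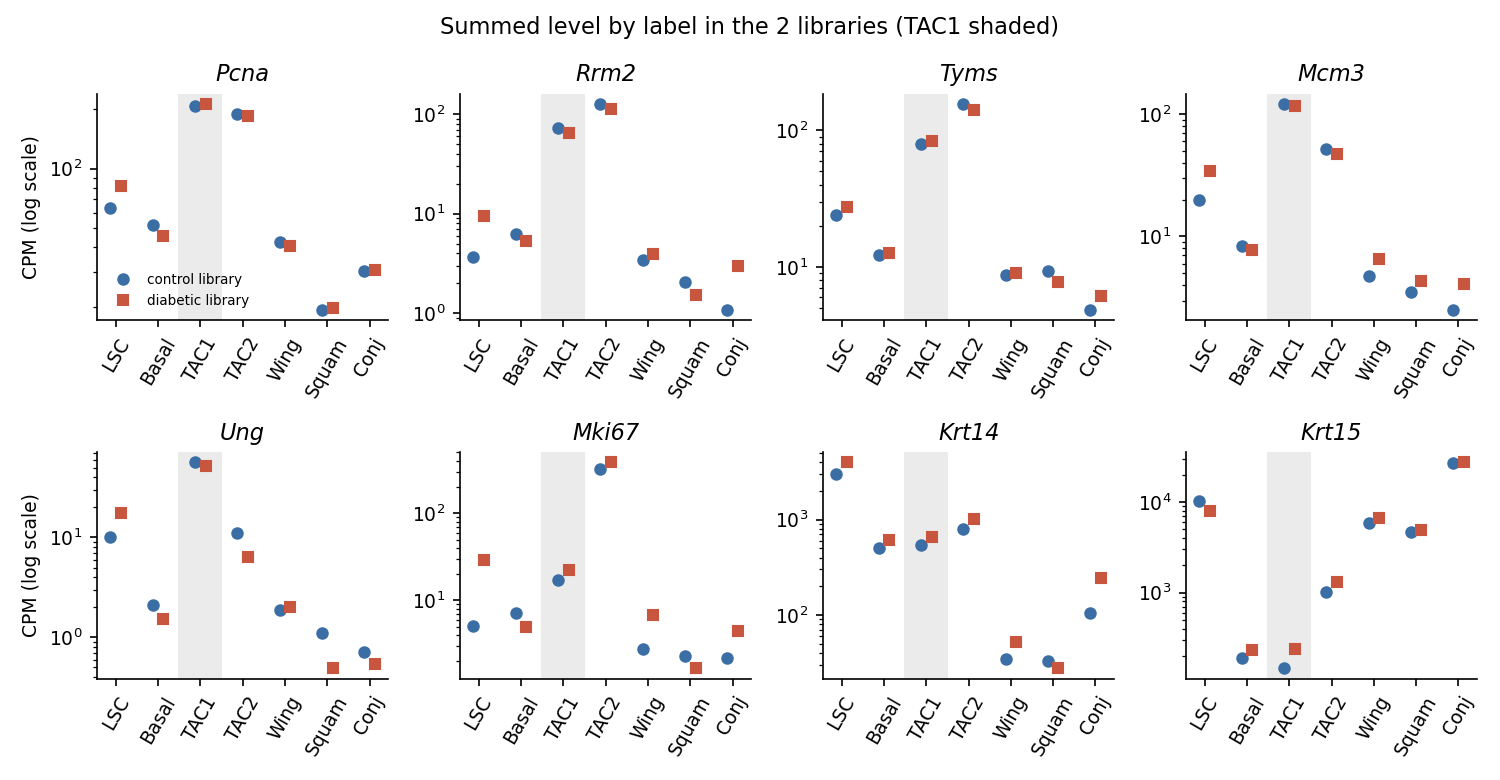
CPM on a log axis of 8 genes in the 7 epithelial labels, with 1 point per library (control and diabetic) and TAC1 shaded. Pcna, Rrm2, Tyms and Mcm3 are high in TAC1 and TAC2, Ung is highest in TAC1, and Mki67 goes from 17.1 and 22.3 CPM in TAC1 to 325 and 385 CPM in TAC2.

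Genes of corneal epithelium and of its basal layer were high in TAC1 cells. Krt12, the keratin that defines corneal epithelium, stood at 18614 CPM in the control and 19750.5 CPM in the diabetic library. Aldh3a1, the corneal aldehyde dehydrogenase that serves as a crystallin, was at 16234 and 15799 CPM, and Pax6, the transcription factor of eye identity, at 442 and 515 CPM. Of 14 measured genes of corneal identity, 0 differed between TAC1 and Basal cells, and 1 (Elf3, lower) differed from TAC2. Over all measured genes 6.08% were higher and 0.707% lower than in Basal cells, and 1.32% and 6.11% than in TAC2 cells, so these counts and those of the basal adhesion list are near the background. The basal layer genes Krt5 (5972 and 6404 CPM), Krt14 (539 and 649.7 CPM), the hemidesmosome collagen Col17a1 (1440.4 and 1414 CPM) and integrin Itgb4 (173 and 145 CPM) were all within the rule's fold of their Basal levels. In the 15-gene basal adhesion list, 0 genes differed from Basal and 2 from TAC2: the ligand Wnt10a was higher in TAC1 (106 and 111 CPM against 59.3 and 71.8 CPM) and Krt15, a keratin of limbal and conjunctival cells, was lower (146 and 236 CPM against 1021 and 1317 CPM).

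Most marker lists of cells other than corneal epithelial cells summed to low levels in TAC1 cells. The 10 immune genes summed to 0.387 CPM in the control and 0.198 CPM in the diabetic library, with 6 and 8 of them at 0. The stromal list (3 genes in the matrix) summed to 0.775 and 1.93 CPM, the red cell list to 0.242 and 0.545 CPM, and the goblet cell list to 0.727 and 0.644 CPM. The endothelial list reached 7.70 and 6.78 CPM, the melanocyte list 6.30 and 6.14 CPM, and the Schwann and nerve list 45.9 and 50 CPM, each at a like level in both libraries. Most of the last sum was Mbp, the myelin basic protein gene, at 43.4 and 47.1 CPM, with 39.2 and 50 CPM in Basal and 172 and 202 CPM in Squam cells.

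Against Basal cells, TAC1 cells differed mostly upward, and most cell cycle lists, from DNA replication to the kinetochore, had most measured members higher. Of 11176 measured genes, 680 (6.08%) were higher in TAC1 in both libraries and 79 (0.707%) were lower, with 0 called in opposite directions. Most of the 680 genes were on none of the cell cycle lists. All 20 genes of the S phase list were higher, with a median log2 ratio of 3.47 in the control and 3.38 in the diabetic library, against -0.05 over all measured genes in each. The first gene by rank was Pclaf, a small protein that binds Pcna at the fork. It was at 97.3 and 129 CPM in TAC1 and 1.80 and 1.81 CPM in Basal cells, 54.0- and 71.4-fold higher. Every list below was compared with that same background.

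Of the genes of origin licensing, the first of the early steps, 12 of 15 were higher in TAC1, with median log2 ratios of 3.06 and 2.93. Mcm3, a helicase subunit, stood at 121 and 115 CPM in TAC1 against 8.32 and 7.79 CPM in Basal cells, 14.6- and 14.8-fold higher. Mcm5 was 17.3- and 11.4-fold higher and Mcm6 7.55- and 6.79-fold higher. Orc1, the cycling subunit of the origin recognition complex, was at 9.78 and 8.96 CPM against 0.285 and 0.178 CPM, while the constitutive subunits Orc3, Orc4 and Orc5 did not pass the rule. The loaders Cdc6 (17.1 and 15.1 against 1.01 and 1.33 CPM) and Cdt1 (35.4 and 34.7 against 4.21 and 3.88 CPM) were higher, as was Gmnn, the geminin that blocks Cdt1 once replication has begun (146 and 124 against 17.2 and 15.3 CPM).

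All 12 genes of origin firing and all 12 of the clamp and clamp loader list were higher, with median log2 ratios of 3.20 and 3.22 for the first and 2.75 and 2.59 for the second. Cdc45, which activates the helicase, went from 0.570 and 0.859 CPM in Basal to 24.3 and 21.2 CPM in TAC1 cells. Gins2, a GINS subunit, was at 12.8 and 16.3 CPM and 76.4 and 79.5 CPM. Lig1, the ligase that seals lagging strand fragments, was at 5.95 and 10.6 CPM in Basal and 109 and 122 CPM in TAC1 cells. The polymerase subunits (10 of 12) and the single-strand DNA binding and topoisomerase genes (6 of 7) moved the same way, with medians of 2.52 and 2.29, and of 2.51 and 2.53.

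Nucleotide supply rose less as a group, with 13 of 17 genes higher and medians of 1.08 and 1.07. Tk1, the salvage thymidine kinase, was at 43.6 and 50.5 CPM against 2.91 and 3.79 CPM in Basal cells. Dut, the dUTPase that keeps uracil out of DNA, was at 249 and 238 against 60.8 and 56.2 CPM. Its partner in the removal of uracil, the glycosylase Ung (chr5:114130386-114139323), had 56.5 and 52.4 CPM in TAC1, 2.12 and 1.54 CPM in Basal and 11.0 and 6.39 CPM in TAC2 cells. Ung was 26.7- and 34.0-fold above Basal and 5.13- and 8.20-fold above TAC2, the largest ranked difference over TAC2 of any named gene.

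Regulators of S phase entry were split by type. E2f1, an activating E2F factor, was at 27.4 and 30.3 CPM in TAC1 against 0.696 and 1.54 CPM in Basal cells, 39.3- and 19.7-fold higher, and 7 of 13 E2F and pocket protein genes were higher. The S phase cyclins Ccne1 (20.4 and 20.3 against 7.66 and 5.36 CPM) and Ccne2 (26.5 and 26.5 against 1.39 and 1.84 CPM) were higher. The G1 cyclins were not: Ccnd1 had 879.7 and 798 CPM in TAC1 and 864 and 737 CPM in Basal cells, and Ccnd2 364 and 284 and 337 and 242 CPM. Among 6 measured inhibitors of cyclin-dependent kinases, 1 was lower in TAC1, the p15 gene Cdkn2b, at 6.59 and 4.26 against 12.1 and 6.66 CPM.

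Chromatin that follows the fork was represented by a list of 12 assembly and methylation genes, of which 10 were higher in TAC1. Hells, a remodeller of methylated chromatin, stood at 139.6 and 125 CPM against 9.18 and 7.25 CPM, and Uhrf1, which brings the maintenance methyltransferase to new DNA, at 79.0 and 78.2 against 3.32 and 3.43 CPM. They were 15.2- and 17.2-fold and 23.8- and 22.8-fold higher. The checkpoint and repair list had 16 of 19 genes higher, with medians of 3.60 and 3.33. Brca1, a repair protein of stalled forks, was at 27.2 and 26.8 against 0.443 and 0.533 CPM, and Clspn, the claspin that carries the checkpoint signal to Chek1, was at 32.8 and 35.6 against 0.728 and 0.770 CPM. Growth genes moved little beside them. Of 18 nucleolar and ribosome assembly genes, 5 were higher (Npm1, Nop56, Nop58, Nhp2 and Nolc1), and 0 of 24 ribosomal protein genes and 0 chaperonin genes differed.

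The 79 genes that were lower in TAC1 than in Basal cells included some histone genes, although the list of replication-dependent histones went both ways. Hist1h2bc, an H2B gene, stood at 41.5 and 31.7 CPM in TAC1 and 145 and 120.3 CPM in Basal cells, 3.49- and 3.80-fold lower. The linker histones Hist1h1c (15 and 17.1 against 38.5 and 38.7 CPM) and H1f0 (36.8 and 38.9 against 70.2 and 60 CPM) were also lower. Mxd4, a MAX partner that opposes MYC, was at 14.2 and 19.0 against 41.4 and 56.0 CPM, and Kdm5b, a histone demethylase, at 35.6 and 37.0 against 67.8 and 70.3 CPM. Pdcd4, an inhibitor of translation initiation, was at 186 and 241 against 293 and 362 CPM. The interferon-inducible gene Ifi27l2a was 4.03- and 4.97-fold lower, at 9.06 and 5.25 against 36.5 and 26.1 CPM. Tcp11l2 was 3.24- and 3.40-fold lower, and Hist3h2a, Tcim, Ptms and Pnrc2 completed the 12 genes with the largest ranked differences.

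Against TAC2 cells the early replication genes were higher in TAC1, and histone, G2 and mitotic genes were lower. Of 10784 measured genes, 142 (1.32%) were higher in TAC1 and 659 (6.11%) lower, and 1 gene, Rep15, was called in opposite directions in the 2 libraries (0.00927%). With median-of-ratios scaling, which puts the median gene at no difference, the split was 230 higher and 568 lower. That is 28.8% higher among called genes in place of 17.7%, and the median log2 ratio of all genes by total count was -0.08 in the control and -0.10 in the diabetic library. In the S phase list 12 of 20 genes were higher in TAC1, with medians of 0.92 and 0.89, and 3 (Rrm1, Rrm2 and Tyms) were lower.

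Licensing genes set the upper side. Of 15 origin licensing genes, 9 were higher in TAC1 than TAC2, with medians of 0.95 and 0.88. Mcm3 was at 51.9 and 46.8 CPM in TAC2 cells, so TAC1 exceeded it by 2.33- and 2.46-fold. The same comparison gave 2.37- and 2.48-fold for Mcm2, 2.28- and 2.41-fold for Mcm6 and 2.56- and 2.49-fold for Gins2. E2f1 was 2.19- and 2.5-fold higher and Hells 2.5- and 2.16-fold higher. Later replication genes differed less from TAC2: of 12 clamp genes 1 was higher and 1 lower, and of 12 polymerase genes 1 was higher. Pclaf was the lower clamp gene, with 372 and 356 CPM in TAC2 cells, 3.82- and 2.76-fold above TAC1. Dbf4, the activator of the Cdc7 kinase, was lower in TAC1 too, at 7.80 and 11.0 against 51.6 and 61.7 CPM.

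Genes outside replication were also among the 142. Ccnd2, a G1 cyclin, was at 364 and 284 CPM in TAC1 and 176 and 140.1 CPM in TAC2 cells, 2.07- and 2.02-fold higher. Eid1, an inhibitor of differentiation that binds the retinoblastoma protein, was 2.12- and 2.12-fold higher, at 68.6 and 68.6 against 32.4 and 32.3 CPM. Igfbp5, an IGF binding protein, was 1.94- and 1.95-fold higher and the glycolytic aldolase Aldoa 1.83- and 1.94-fold higher. Myc stood at 20.3 and 18.1 against 10.5 and 10.9 CPM. Neither Ccnd2 nor Igfbp5 passed the rule against Basal cells, where Ccnd2 was at 337 and 242 CPM and Igfbp5 at 121 and 163 CPM.

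All 26 genes of the G2 and M list were lower in TAC1 than in TAC2, with median log2 ratios of -4.20 and -4.14. Ube2c, the ubiquitin-conjugating enzyme of the anaphase-promoting complex, stood at 9.15 and 9.51 CPM in TAC1, 9.08 and 9.47 CPM in Basal and 457 and 524 CPM in TAC2 cells. TAC2 was 50- and 55.2-fold above TAC1, and TAC1 was level with Basal. Cenpf, a kinetochore protein of G2 and M phase, went further, with 5.33 and 5.84 CPM in TAC1, 16.7 and 17.2 CPM in Basal and 359 and 400.3 CPM in TAC2 cells, so it was 3.13- and 2.94-fold below Basal. Mki67, the antigen used to stain cycling cells, was at 17.1 and 22.3 CPM in TAC1, 7.21 and 4.97 CPM in Basal and 325 and 385 CPM in TAC2 cells.

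Against Basal cells the same list was mostly higher in TAC1, with 19 of 24 measured genes higher, 1 (Cenpf) lower and medians of 1.62 and 2.42. Kinetochore and centromere genes stood higher still, with 15 of 16 higher than in Basal cells and medians of 3.32 and 3.40. Top2a, topoisomerase II alpha, stood at 40.0 and 46.3 CPM against 2.12 and 1.72 CPM in Basal and 417 and 460.0 CPM in TAC2 cells. Cdk1 was at 44.9 and 40.4 against 2.09 and 2.16 and 225 and 247 CPM, and Birc5, survivin, at 25.8 and 27.2 against 3.67 and 2.40 and 382 and 392 CPM. Ccnb1, the mitotic cyclin, was at 2.66 and 2.28 CPM in TAC1 and 103 and 122 CPM in TAC2 cells. Against TAC2 cells, 14 of the 16 kinetochore genes and 9 of 15 cohesin and condensin genes were lower in TAC1.

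Replication-dependent histone genes set the labels apart in the same direction as G2 and M genes. Their mRNAs are made in S phase and mostly end in a stem-loop in place of a poly(A) tail, so a poly(A) capture sees a part of them, and near-identical copies can share or lose reads. All 23 measured members were lower in TAC1 than in TAC2, with medians of -3.54 and -4.16. Hist1h2ap stood at 43.8 and 21.6 CPM in TAC1 against 1149.5 and 649 CPM in TAC2, and the linker histone Hist1h1b at 20.9 and 32.9 against 506 and 739 CPM. Against Basal cells 4 of 18 were higher and 5 lower, where 6.08% and 0.707% of all measured genes were. The members thus went both ways, and the medians were -0.05 and -0.12, against -0.05 over all measured genes in each library. Slbp, which binds the stem-loop, was higher in TAC1 than in Basal.

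Inhibitors of cyclin-dependent kinases were lower in TAC1 than in TAC2. Of 7 measured genes, 5 passed the rule, with medians of -1.47 and -1.53. Cdkn2d, p19, stood at 13.6 and 14.8 CPM in TAC1 against 90.4 and 89.4 CPM in TAC2, and Cdkn1a, p21, at 16.2 and 13.7 against 63.3 and 52.8 CPM. In Basal cells those genes were at 14.5 and 15.6 and 24.4 and 17.9 CPM and did not pass the rule against TAC1. Lists of other epithelial cells also had lower members in TAC1. The conjunctival list had 6 of 7 measured genes lower than in TAC2, with medians of -3.30 and -3.76. Krt4, a keratin of conjunctival epithelium, was at 4.60 and 7.53 CPM in TAC1, 56.9 and 102 CPM in TAC2 and 3661 and 5909 CPM in Conj cells, the conjunctival label. That list summed to 46.0 and 43.5 CPM in TAC1, 49.8 and 39.6 CPM in Basal, 294 and 359 CPM in TAC2 and 14295 and 19012 CPM in Conj cells, with 2, 2, 1 and 0 of its 9 members at 0 in each library. CDK inhibitors summed to 132 and 142 CPM in TAC1, 349 and 345 CPM in TAC2, 488 and 562 CPM in Conj and 609 and 569 CPM in Wing cells. The part of conjunctival or wing cell RNA in the TAC2 levels was not tested. Among wing layer genes 4 were lower in TAC1 than in TAC2, and of 9 measured surface genes 4 were lower, among them Psca at 72.2 and 42.3 against 366 and 288 CPM. Likely doublets made up 5.55% and 8.79% of TAC1 but 17.8% and 19.1% of TAC2 cells.

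**Figure D2:**
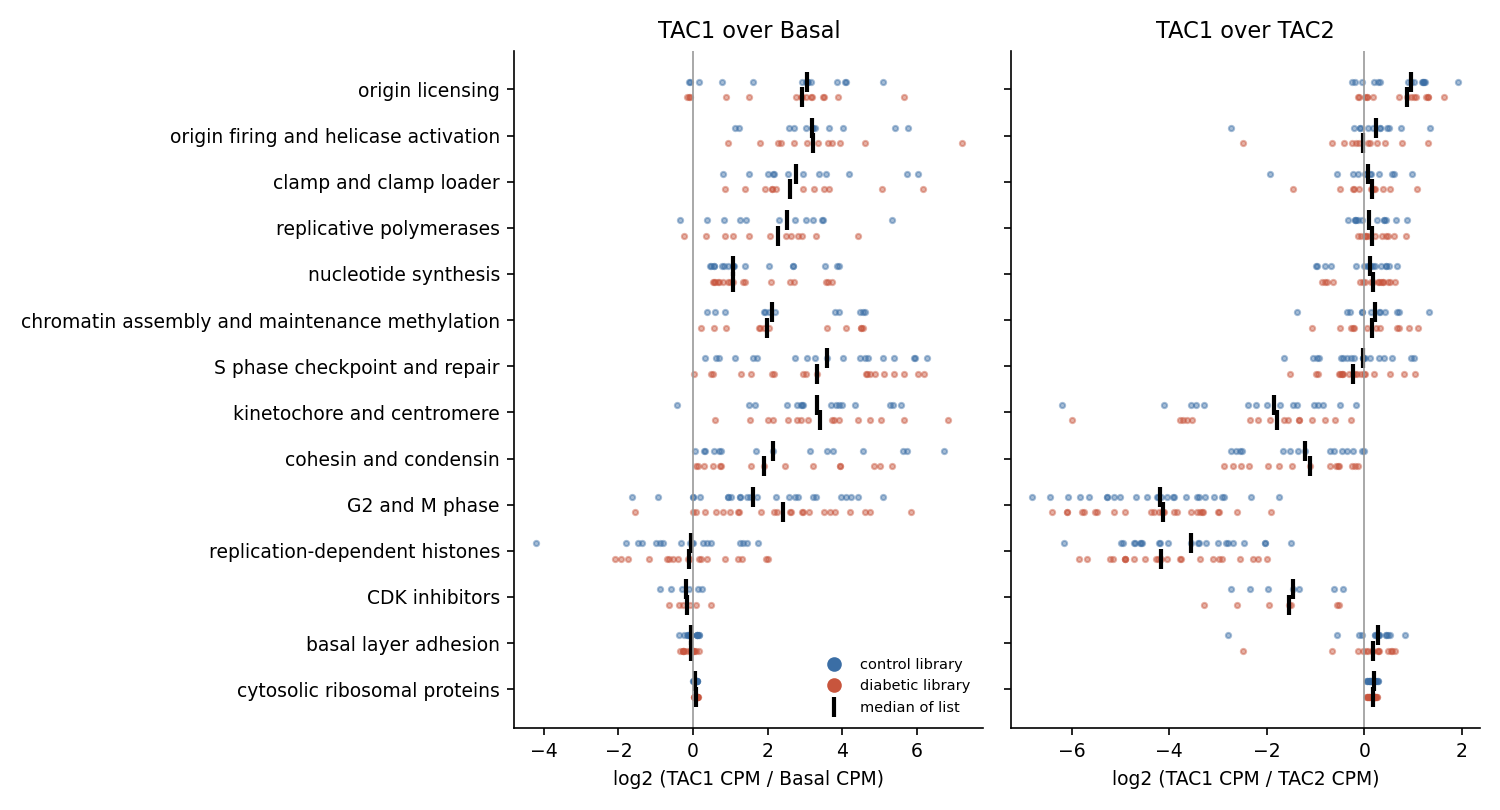
Log2 ratio of CPM in TAC1 over Basal (left) and over TAC2 (right) for each measured member of 14 lists, in the control (blue) and diabetic (red) library, with a black bar at the median. Most replication genes lie above 0 against Basal, licensing genes stay above 0 against TAC2 with medians of 0.95 and 0.88, and the G2 and M list falls to -4.20 and -4.14.

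Single cells were compared after each was thinned at random to 5000 UMIs, so that depth was equal, which left out 57 control and 28 diabetic TAC1 cells. A cell counted for S phase with 3 or more UMIs over the 20-gene S list and for G2 and M with 2 or more over the 26-gene list. These counts describe transcripts and do not establish the phase of a cell. In TAC1, 1146 of 1204 control cells (95.2%, 93.8 to 96.3) and 897 of 985 diabetic cells (91.1%, 89.1 to 92.8) counted for S phase. The share was 13% and 11.0% in Basal cells, 61.4% and 64.4% in TAC2 cells, and 2.99% and 3.13% in the surface Squam cells, which are past division. Likely doublets were 9.83% and 6.61% of Squam cells, and whether their counts came from free RNA, doublets or the cells themselves was not tested. Before thinning, every TAC1 cell had 3 or more UMIs over the S list in either library, at a median depth of 16938 and 19814 UMIs. Unthinned, 41.4% and 46.6% of Basal and 34.5% and 34.4% of Squam cells also reached 3, so the cut separates labels less at full depth.

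Counts over the S phase list differed widely among TAC1 cells. The thinned S list count had a median of 8 in control and 7 in diabetic cells, quartiles of 5 and 11 in both, and a highest value of 35 and 29. Cells with 15 or more UMIs were 11.3% and 11.1% of the label, and cells with 2 or fewer were 4.82% and 8.93%. In Basal cells the median was 1 in both libraries. Near the cut, 75 control and 66 diabetic TAC1 cells had exactly 3 UMIs and 44 and 52 had 2, so the share moves with the cut. No single gene marked every cell at this depth: Pcna was seen in 58.6% and 57.1% of TAC1 cells, Mcm3 in 43.5% and 42.3%, Tyms in 27.0% and 32.3% and Rrm2 in 24.3% and 19.5%. In Squam cells Pcna was seen in 8.05% and 8.72%, and in Basal cells in 23.3% and 20.0%.

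G2 and M transcripts were fewer in TAC1 than in TAC2 cells. At equal depth 37.2% of control and 32.0% of diabetic TAC1 cells held none of them, and the share that passes moves with the minimum. At the minimum of 2 UMIs 35.5% of control cells (32.8 to 38.3) and 36.8% of diabetic cells (33.7 to 39.8) passed, against 89.0% and 94.5% of TAC2, 10.9% and 10.7% of Basal and 2.27% and 1.83% of Squam cells. The median count was 1 in TAC1 in both libraries and 18 and 22 in TAC2. Nearly all of these TAC1 cells also counted for S phase: S only cells were 60.2% and 55.5%, cells with both 35.0% and 35.5%, G2 and M only cells 0.581% and 1.22%, and cells with neither 4.24% and 7.72%. In TAC2 the G2 and M only class held 34.7% and 33.3%. Mki67 itself was seen in 5.07% and 7.51% of TAC1 cells and in 62.4% and 72.7% of TAC2 cells.

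**Figure D3:**
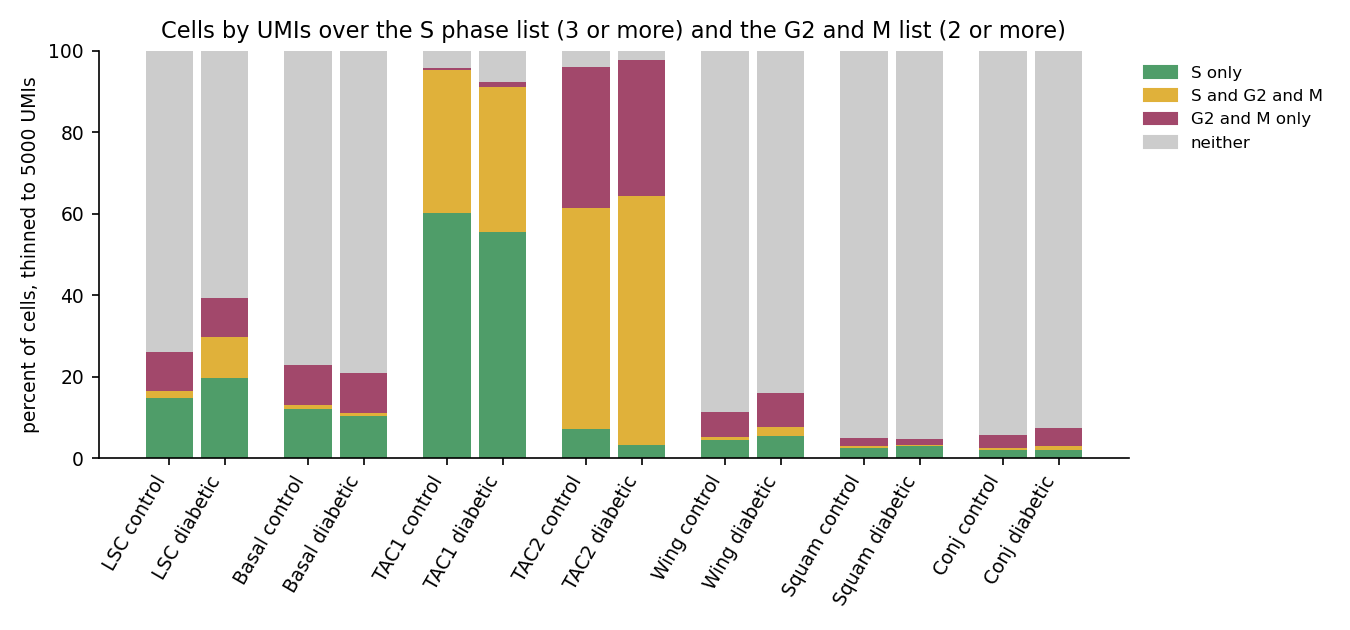
Percent of cells in 4 classes (S only, S and G2 and M, G2 and M only, neither) after thinning to 5000 UMIs, as stacked bars that sum to 100, by label and library. TAC1 is mostly S only (60.2% and 55.5%), and most Basal cells are in neither class.

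Between diabetic and control TAC1 cells no gene of the replication lists passed the rule, and the immediate early list had most genes called. Of 11038 measured genes, 188 (1.7%) rose and 168 (1.52%) fell in diabetic cells, 3.23% in all, with a median log2 ratio of 0.01. In the S phase list 0 of 20 genes passed the rule, with a median of -0.12, and in the G2 and M list 0 of 25, with a median of 0.13. By sign alone, 16 of the 20 S phase genes and 13 of 15 origin licensing genes lay below 0. Above 0 lay 20 of the 25 G2 and M genes, and 5739 of all 11038 measured genes. Origin licensing (0 of 15, median -0.13), origin firing (median -0.06), the clamp list (median -0.01), the polymerases (median 0.14), nucleotide synthesis (median 0.04) and checkpoint and repair genes (median 0.05) had 0 called members each. With so small a share of all genes called, counts of 0 in lists of this size are near the background and do not show that the libraries were alike.

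The intervals bound how far single replication genes could differ between these libraries by counting error. Pcna had 208 CPM in the control and 213 CPM in the diabetic library, a ratio of 1.02 (0.981 to 1.07). For Mcm3 the ratio was 0.952 (0.899 to 1.01), for Tyms 1.05 (0.981 to 1.13) and for Rrm2 0.890 (0.825 to 0.959). Pclaf had a ratio of 1.33 (1.25 to 1.41), at 97.3 and 129 CPM, Dbf4 1.41 (1.15 to 1.74), at 7.80 and 11.0 CPM, and Mki67 1.30 (1.13 to 1.5), and none of these passed the rule. Tfdp2, a dimer partner of E2F, was the 1 member of its list to rise, from 49.5 to 77.4 CPM, 1.57-fold (1.45 to 1.70). The S phase share per cell was 95.2% and 91.1%, with intervals that do not overlap, and the G2 and M share was 35.5% and 36.8%, with intervals that do. With 1 pool per group, a difference between pools and one between conditions cannot be told apart.

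Immediate early genes, which are switched on within minutes of a signal, had the most members higher of any list. Of 16 measured members 12 were higher in diabetic TAC1 cells and 0 lower, with a median log2 ratio of 1.03 against 0.01 over all genes. Btg2, an antiproliferative gene of this class (chr1:134075170-134079120), stood at 13.8 CPM in the control and 66.2 CPM in the diabetic library, 4.82-fold (4.23 to 5.49) higher. Fos, a subunit of the AP-1 factor, was at 211 and 404 CPM, 1.92-fold (1.85 to 1.99) higher, and its relative Fosb at 32.7 and 84.8 CPM, 2.59-fold (2.37 to 2.84) higher. Egr1, a zinc finger factor, was at 37.8 and 76.9 CPM, 2.03-fold (1.87 to 2.22) higher. Each of these genes was named because it passed the rule. Intervals that do not overlap are part of that rule and give no added support. Tissue dissociation can also switch on genes of this class, and with 1 pool per group an effect of handling and one of diabetes cannot be told apart.

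The feedback members rose with them. Dusp1, a phosphatase that turns off MAP kinases, was at 20.2 and 53.3 CPM, 2.63-fold (2.35 to 2.96) higher. Zfp36, which degrades unstable mRNAs, was at 43.0 and 100.2 CPM, 2.33-fold (2.15 to 2.52) higher, and the zinc finger gene Klf6 at 17.5 and 35.7 CPM, 2.04-fold (1.79 to 2.32) higher. The nuclear receptor Nr4a1 was low in both libraries, at 0.533 and 6.54 CPM, and was 12.3-fold (6.64 to 25.2) higher. Jun (257 and 399 CPM, 1.55-fold) and Ier3 (35.6 and 54.4 CPM, 1.53-fold) passed narrowly. Junb (305 and 372 CPM), Jund (244 and 303 CPM), Ier2 (184 and 219 CPM) and Myc (20.3 and 18.1 CPM) did not pass.

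The same genes were set beside those of the neighbouring labels, which come from the same 2 libraries. In Basal cells 8 of 16 immediate early genes were higher and 0 lower (background 2.63% higher and 2.38% lower of all genes), with a median of 0.66. In TAC2 cells 9 of 16 were higher and 0 lower (background 2.21% and 1.35%), with a median of 0.68. Btg2 was at 25.6 and 66.8 CPM in Basal and 23.1 and 56.6 CPM in TAC2 cells, so its diabetic level was similar in the 3 labels while its control level was lowest in TAC1. Egr1 had 55.9 and 75.8 CPM in Basal and 47.0 and 64.3 CPM in TAC2 cells and did not pass the rule in either. Whether the response differed between labels was not tested.

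Glucocorticoid response genes rose in part, with 4 of 12 measured members higher, 0 lower and a median of 0.32. With each cell thinned to 5000 UMIs, 2 were higher. Thinning also cut the genes called higher over all genes, from 188 of 11038 measured to 92 of 9138, so calls can end through fewer counts. Fkbp5, a chaperone that feeds back on the glucocorticoid receptor (chr17:28399094-28517527), stood at 14.7 CPM in the control and 53.2 CPM in the diabetic library, 3.63-fold (3.19 to 4.13) higher. In Basal cells it was at 5.47 and 48.0 CPM, 8.77-fold higher, and in TAC2 cells at 15.2 and 50.9 CPM, 3.35-fold higher. Tsc22d3, the glucocorticoid-induced leucine zipper, was at 110.5 and 177 CPM, 1.60-fold (1.52 to 1.69) higher, and the zinc finger gene Zbtb16 at 3.58 and 8.17 CPM, 2.28-fold (1.72 to 3.04) higher. Ddit4, an inhibitor of mTORC1, was at 3.63 and 6.04 CPM. Per1 (22.2 and 26.5 CPM), Sgk1 (189 and 165 CPM), Klf9 (22.1 and 21.1 CPM) and the metallothionein Mt1 (798 and 735 CPM) did not pass.

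Of 14 measured glucose and insulin response genes, 2 were higher. Txnip, the thioredoxin-binding arrestin that responds to glucose, was at 206 and 361 CPM, 1.75-fold (1.69 to 1.82) higher. In Basal cells it was at 239 and 500.1 CPM and in TAC2 cells at 226 and 367 CPM. Igfbp7, a secreted IGF binding protein, went from 3.39 to 16.1 CPM, 4.76-fold (3.67 to 6.26) higher. Igf1r (98.1 and 109 CPM), Insr (9.83 and 11.5 CPM) and Irs2 (7.65 and 7.97 CPM), which carry insulin and IGF signals, did not pass. In the 10-gene osmolyte list, Slc6a6, the taurine transporter, was 1.65-fold (1.62 to 1.69) higher, at 826 and 1366 CPM. The aldose reductases split, with Akr1b8 higher (4.50 and 6.83 CPM) and Akr1b7 4.84-fold (2.97 to 8.27) lower (4.80 and 0.990 CPM), while Nfat5, the osmotic stress factor, had 51.1 and 61.3 CPM.

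Limbal genes were the layer list with most members called, 6 of 14 higher and 1 lower, with a median of 0.19. Over all measured genes 1.7% were higher and 1.52% lower. The rise was not particular to TAC1. In Basal cells 5 of 14 were higher and 2 lower (median 0.27), and in TAC2 cells 7 of 14 and 0 (0.70). Conj cells had 7 of 11 higher and 0 lower (0.79), while Squam cells had 1 of 9 higher and 4 lower (-0.63). Gpha2 is a glycoprotein hormone subunit that marks limbal stem cells. In TAC1 cells it stood at 119.8 CPM in the control and 268 CPM in the diabetic library, 2.24-fold (2.13 to 2.35) higher. Basal cells had 115 and 254 CPM and TAC2 cells 115 and 261 CPM, while LSC cells, the limbal stem label, had 2875 and 2049.7 CPM. Krt15 was at 146 and 236 CPM in TAC1, 1.62-fold (1.54 to 1.69) higher, and at 189 and 235 CPM in Basal cells. The others that rose were Cd63 (0.727 and 2.03 CPM), Igfbp7, Socs3 (1.21 and 7.67 CPM) and Atf3 (0.581 and 3.81 CPM). Igfbp7 was already counted in the glucose and insulin list, and Atf3 is also an immediate early gene. Lgals7, an epithelial galectin, was 1.65-fold (1.59 to 1.71) lower, at 408 and 247 CPM. Other genes among the 12 highest by rank were S100a4, a calcium-binding protein (13.8 and 33.9 CPM), and the nuclear long noncoding RNA Neat1 (151 and 274 CPM). LSC cells were 2.10% of the control and 4.04% of the diabetic library, and the part of free limbal RNA in these levels was not tested.

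Of 9 measured surface layer genes, 4 were lower in diabetic TAC1 cells and 0 higher, with a median of -0.57. This was not particular to TAC1. In Basal cells 5 of 9 were lower (median -1.05), in TAC2 cells 4 of 9 (-0.44) and in LSC cells 4 of 9 (-0.61), with 0 higher in each. The wing layer list was not lower in TAC1, with 1 of 14 genes higher, 0 lower and a median of 0.03. The list of corneal factors of early suprabasal commitment had 3 of 10 genes higher, 1 lower and a median of 0.16. Tmprss11d, an airway-type transmembrane protease, stood at 516 CPM in the control and 248 CPM in the diabetic library, 2.08-fold (2.01 to 2.15) lower, and was also lower in Basal (528 and 241 CPM) and TAC2 cells (352 and 132 CPM). Asprv1, a retroviral-like protease of the skin surface, was at 81.4 and 37.4 CPM, and Psca, a small GPI-anchored protein, at 72.2 and 42.3 CPM. Hopx, a homeodomain protein of differentiating cells, was at 24.0 and 8.32 CPM, 2.89-fold (2.42 to 3.46) lower, and Krt6b, a keratin of stressed and suprabasal cells, at 40.1 and 21.3 CPM, 1.88-fold (1.67 to 2.12) lower. In Squam cells Asprv1 was at 24933 and 25969 CPM and Psca at 28929.5 and 40529 CPM. The whole surface list summed to 6915 CPM in control and 6045 CPM in diabetic TAC1 cells, with 1 and 2 of its 12 members at 0, and to 69515 and 80256 CPM in Squam cells, and the part of that RNA in TAC1 was not tested. In 1 control cell 195 of 1680 Asprv1 counts were found, and in 1 diabetic cell 153 of 755. The top control and diabetic cell held 64 of 1491 and 230 of 855 Psca counts. For Krt6b they held 74 of 828 and 119 of 431, and for Hopx 62 of 496 and 14 of 168. The counting intervals do not cover such single cells.

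Other genes on the lower side came from several groups. Fgfbp1, which releases FGF from the matrix, was at 114 and 56.4 CPM, 2.02-fold (1.88 to 2.17) lower. Pla2g7, a phospholipase that breaks down platelet-activating factor, was 1.93-fold (1.69 to 2.20) lower, Adtrp, a hydrolase of fatty acid esters of hydroxy fatty acids, 1.90-fold (1.69 to 2.12) lower, and Plac8 1.75-fold (1.60 to 1.92) lower. The 24 ribosomal protein genes had a median of 0.00 and 0 called members.

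Cell cycle genes on the lower side were few. Hist1h2ap was at 43.8 and 21.6 CPM, 2.02-fold (1.80 to 2.27) lower, while the linker histone Hist1h1b was 1.57-fold (1.39 to 1.78) higher at 20.9 and 32.9 CPM, and the other 15 of 17 measured histone genes did not pass, with a list median of 0.19. With likely doublets left out, or each cell thinned to 5000 UMIs, 0 histone genes passed higher. Among CDK inhibitors Cdkn2a, which encodes p16 and ARF, was 4.70-fold (2.35 to 10.4) lower at 2.32 and 0.495 CPM, from 48 and 10 counts, and Cdkn2b 1.55-fold (1.17 to 2.05) lower at 6.59 and 4.26 CPM. Cdkn2a was at 2.15 and 0.385 CPM in Basal and 11.7 and 4.86 CPM in TAC2 cells, lower in the diabetic library in both. The other 5 measured inhibitors did not pass. Both calls ended when each cell was thinned to 5000 UMIs, and when TAC1 cells with G2 and M UMIs were left out, with 0 of 6 measured inhibitors lower in each case.

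Interferon response genes were lower in part, with 5 of 14 measured members lower, 0 higher and a median of -0.44. With each cell thinned to 5000 UMIs 2 were lower, and with TAC1 cells that held G2 and M UMIs left out 3 were. Over all genes thinning left 9138 measured, 110 of them lower, and leaving out those cells left 10396, with 131 lower. Full data had 11038 measured and 168 lower, so calls can also end through fewer counts. Isg15, a ubiquitin-like antiviral protein, stood at 10.7 CPM in the control and 4.16 CPM in the diabetic library, 2.57-fold (1.99 to 3.35) lower. Xaf1, an interferon-inducible promoter of apoptosis, was at 9.59 and 4.31 CPM, 2.23-fold (1.72 to 2.90) lower, and the master regulator Irf7 at 4.50 and 2.38 CPM, 1.90-fold (1.32 to 2.74) lower. Ifi27 (137 and 96.5 CPM) and Bst2 (10.6 and 8.22 CPM) did not pass. Of 10 MHC class I genes 1 was lower, the immunoproteasome subunit Psmb9 (37.7 and 23.7 CPM). Basal cells had 7 of 15 interferon genes lower and TAC2 cells 5 of 16 lower and 1 higher. Immune cells numbered 26 in the control and 10 in the diabetic library.

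Cholesterol synthesis genes had 2 of 19 members lower and a median of -0.26. They were Dhcr7, a late enzyme of the pathway (10.7 and 6.59 CPM), and Insig1, the sterol sensor's partner (23.5 and 15.4 CPM). In Basal cells 7 of 19 were lower with a median of -0.51, and in TAC2 cells 5 of 19 with a median of -0.49.

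Several stress and energy lists had 0 called members in TAC1: the unfolded protein response (15 measured, median -0.11), heat shock (10, 0.10), antioxidant (15, 0.00), glycolysis (14, -0.02), nuclear oxidative phosphorylation (18, -0.08), mitochondrially encoded (11, -0.06), Notch (8) and Wnt genes (10). Of 11 measured p53 targets, 2 were higher, Btg2 and the stress gene Sesn2 (1.45 and 3.42 CPM). Growth factor genes had 1 higher, Hbegf, and 1 lower, Fgfbp1, and clock genes 1 higher, Cry1, and 1 lower, Bhlhe41. Of corneal identity genes Sox9 was lower (30.5 and 20.1 CPM) and Krt12 (18614 and 19750.5 CPM) and Pax6 (442 and 515 CPM) did not pass. Krt16, a wing layer and stress keratin, passed at 0.0969 and 2.62 CPM, but 45 of its 53 diabetic counts came from 1 cell.

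**Figure D4:**
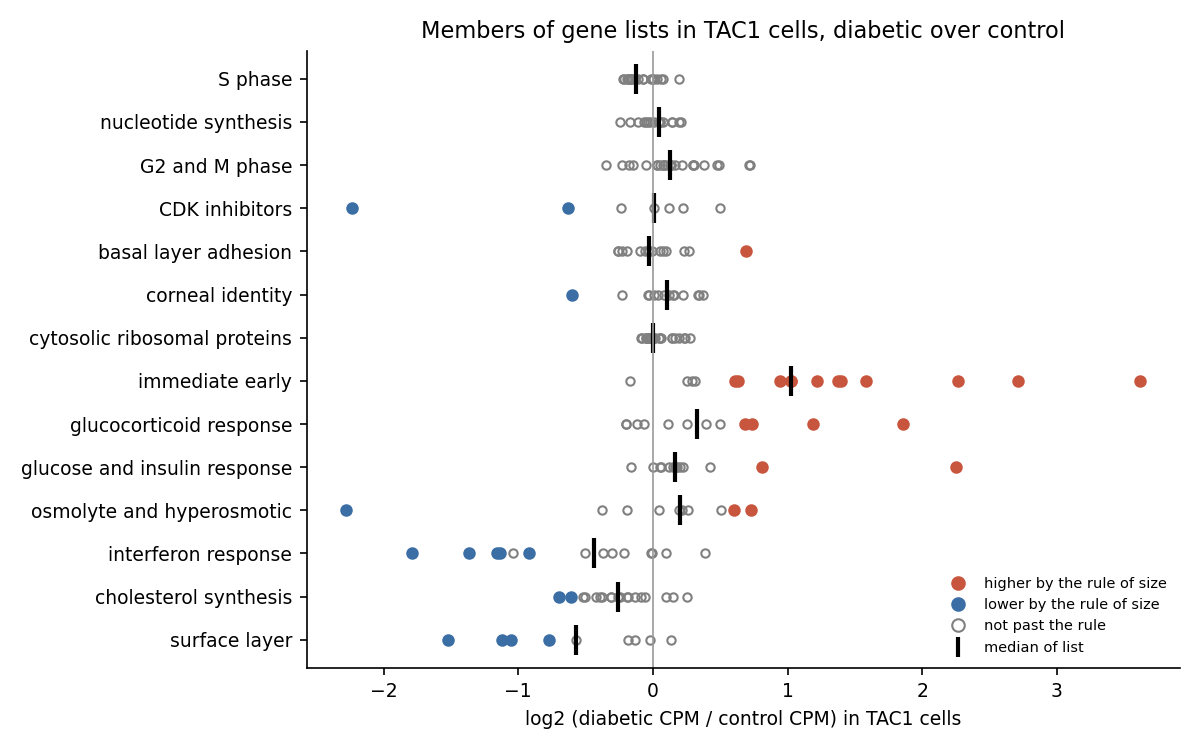
Log2 ratio of CPM, diabetic over control, in TAC1 cells for each measured member of 14 lists, filled red where higher and filled blue where lower by the rule of size and open otherwise, with a black bar at the median. The S phase and nucleotide synthesis lists hold only open points, with medians of -0.12 and 0.04, and 16 of 20 S phase genes lie below 0. Of 16 immediate early genes, 12 are filled red around a median of 1.03.

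**Figure D5:**
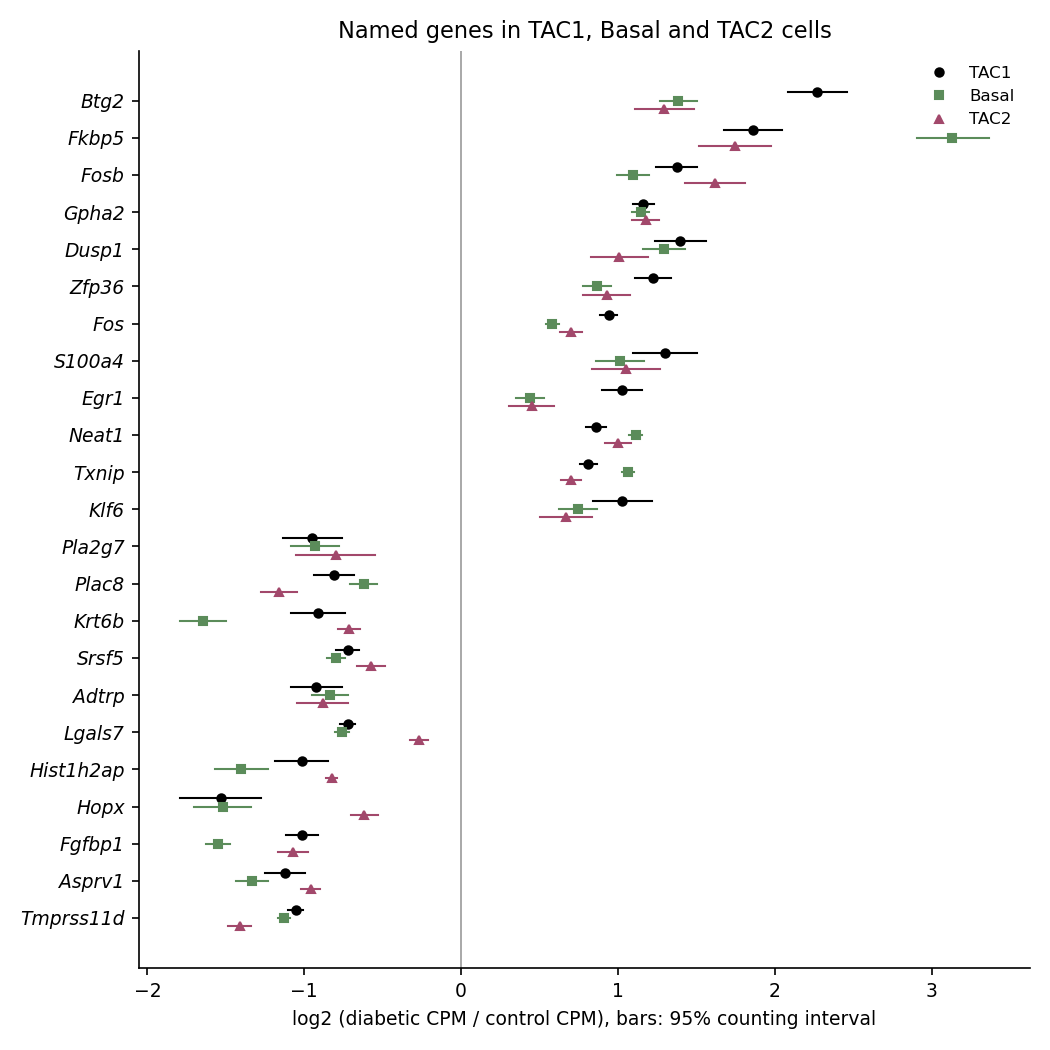
Log2 ratio of CPM, diabetic over control, with its 95% counting interval, for the genes with the largest ranked ratios in TAC1 (12 higher and 11 lower), shown in TAC1, Basal and TAC2 cells. Btg2 leads the higher side in TAC1 at 13.8 and 66.2 CPM, and Tmprss11d the lower side at 516 and 248 CPM.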

How the data were processed

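The data come from droplet-based 3′ sequencing of RNA in single cells, with 1 control and 1 diabetic library. The authors deposited raw UMI counts (whole numbers) of 17492 genes in 17808 cells and a cell table with 8 labels, per the file headers. The submitters' processing notes list Cell Ranger 5.0.0, Seurat 4 and the build mm10 but no roles. No cell filter is stated in those sources, and the lowest cell had 520 UMIs and 253 genes.

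Counts were summed per label and library and scaled by the total count to CPM. Intervals are exact 95% Poisson intervals for CPM, exact conditional binomial for ratios and Clopper-Pearson for shares. In the summed TAC1 cells, 3 counts equal 0.145 CPM in control and 0.149 CPM in diabetic TAC1 cells. The rule of size was checked on simulated Poisson counts, the same model that the rule assumes. These held no added variation between cells, mice or pools, so the check says nothing about such variation. Members, gene lists and motifs were chosen with earlier results of these data known. Named genes were the 12 with the largest log2 ratio in each direction once 10 CPM were added, among genes that passed the rule and reached 20 CPM in the higher arm, without ribosomal protein genes, gene models, Xist and Y-linked genes. In addition, cell cycle members could be named freely, and other lists gave up to 6 by level and 3 per direction by ratio. A few genes outside this, such as Krt16, Asprv1 and Rep15 where single cells matter, were singled out after their values were seen. Some genes that the rule named are not reported here. Scrublet's automatic threshold marked 0 cells, so likely doublets were the top 8% of scores in each library and were kept except in an alternative. Alternatives were other scalings, minimums, folds, cell filters and thinning. Gene positions came from GENCODE on GRCm38 and promoters from RefSeq on GRCm38.p6. Scripts ran in Python 3.11.15 with scanpy 1.11.5 for Scrublet, scipy 1.17.1 for intervals, matplotlib 3.10.9 for figures, and numpy 2.4.6 with pandas 2.3.3.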

Additional observations from a re-analysis of the deposited data

Results flagged for a closer look

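Some genes named for TAC1 cells went the other way in another label, and these differences were not tested. Dusp1 and Egr1, both higher in diabetic TAC1 cells, had diabetic over control ratios of 0.599 and 0.522 in Squam cells. In Conj cells, the conjunctival label, the ratio of Egr1 was 0.305 and that of Fos 0.666. Hist1h2ap, lower in diabetic TAC1 cells, had a ratio of 1.72 in Conj cells. Lgals7, also lower in diabetic TAC1 cells, had a ratio of 1.55 in LSC and 1.88 in Conj cells.

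Rep15, a gene of endosome recycling, was the 1 gene called in opposite directions between TAC1 and TAC2 cells. Its TAC1 over TAC2 ratio was 0.328 (0.219 to 0.485) in the control and 2.20 (1.47 to 3.36) in the diabetic library. The counts were 41 and 88 in TAC1 and 78 and 35 in TAC2 cells, and 1 cell held 18 of the control and 30 of the diabetic TAC1 counts.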

How the results depend on the processing

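Ratios of the named genes, 120 by gene, comparison and library, were recomputed under the alternatives, which gave 1032 values. Of these, 955 stayed within their counting interval, 77 moved beyond it and 0 reversed. Other minimums or folds do not enter a ratio, so values under those alternatives could not move. The genes had been chosen for the largest ratios, so the 0 reversals do not show how stable smaller ratios are. Of 249 other values, 198 stayed and 51 moved.

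For diabetic against control, a minimum of 200 counts gave 110 genes higher and 103 lower, and a fold of 2 gave 66 and 52. Thinning each cell to 5000 UMIs gave 92 and 110, of which 51 and 54 were also called at full depth. It left 9138 genes measured in place of 11038, and leaving out TAC1 cells with G2 and M UMIs left 10396. Thinned, the G2 and M list had 1 gene higher, CDK inhibitors 0 lower, glucocorticoid genes 2 higher, interferon genes 2 lower and histones 0 higher. The thinned list medians were 0.88 for immediate early, 0.033 for glucose and insulin, -0.27 for interferon, -1.05 for surface and 0.083 for histone genes. With likely doublets left out, histones had 0 genes higher. With TAC1 cells that held G2 and M UMIs left out, CDK inhibitors had 0 lower, interferon genes 3 lower with a median of -0.27, and surface genes a median of -0.28. With cells under 3 S phase UMIs left out, chosen after seeing the data, the G2 and M list had 1 gene higher. Leaving out each gene's top cell, also chosen after seeing the data, gave 188 higher and 171 lower genes.

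Against Basal, a fold of 2 gave 405 higher and 18 lower. Against TAC2, median-of-ratios scaling gave 230 higher, a fold of 2 gave 24 higher and 408 lower, and thinning 55 and 365. Among Basal, LSC, TAC1 and TAC2 cells only, TAC1 was 27.3% and 22.9%. Its S phase share was 80.7% and 73.7% at 3000 UMIs, 100% and 99.3% at 10000, 98.8% and 96.3% with 1 UMI fewer, 89.0% and 84.4% with 1 more, and 100% unthinned in both. Its G2 and M share was 21.7% and 25.2% at 3000 UMIs, 57.3% and 60.9% at 10000, 62.8% and 68.0% with 1 fewer, 21.3% and 21.5% with 1 more, and 70.8% and 78.7% unthinned. The causes were not tested. No paired analysis was possible because each group has 1 library. Depth limits genes under about 50 summed counts, and the 1 pool per group limits every comparison of groups.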
